A study of Sus scrofa with 24 samples.

Results

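CHI3L1, ELANE and NPG4, genes whose products fill the granules of neutrophils, were followed in blood mononuclear cells of pigs on 6 diets. All probe sets that the array's annotation assigns to 1 of these 3 symbols were taken, which gave 8 of 23999 probe sets: 1 for CHI3L1, 1 for ELANE and 6 for NPG4, here called sets A to F. The annotation names 6765 genes by probe sets with 1 symbol, of which these are 3. The step from symbol to probe set used the annotation and no measured value, while the 3 genes were chosen with earlier results of these data known. Expression was measured on 24 Affymetrix porcine arrays, each with RNA of peripheral blood mononuclear cells (PBMNCs) from 1 pig, and every group held 4 pigs, of which 2 were female and 2 male. All groups were fed for 4 months. CT animals received standard chow, and CT-GE-RES animals the same chow with a resveratrol-enriched grape extract. The atherogenic diet contained beef tallow at 5.5%, coconut oil at 10% and cholic acid at 1%. It was given alone in AD, while AD-GE animals had grape extract added, AD-RES animals resveratrol, a stilbene of grape skin, and AD-GE-RES animals the resveratrol-enriched extract. Grape extract was dosed at 1 g, and resveratrol at 18 mg, per 70 kg of body weight. In the text an animal is named by its group and a number from 1 to 4. Numbers 1 and 2 are females, 3 and 4 males, and a shared number does not pair animals of different groups.

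Neutrophils carry ready-made antimicrobial proteins in granules that form one after another during maturation in the bone marrow, and the messenger RNA of each granule class is made at its own stage. ELANE encodes neutrophil elastase, a serine protease of the azurophil (primary) granules, transcribed at the promyelocyte stage. CHI3L1 encodes a chitinase-like lectin without enzyme activity that is stored in specific (secondary) granules and is also made by monocyte-derived macrophages. NPG4 encodes the precursor of protegrin 4, a porcine cathelicidin; cathelicidins are stored as inactive precursors and cut by elastase, upon release, to antimicrobial peptides. A mononuclear fraction from a density gradient holds lymphocytes and monocytes, whereas mature granulocytes mostly sediment below it. In the RefSeq gene table for assembly Sscrofa11.1, ELANE lay next to PRTN3, followed by AZU1, both encoding relatives of elastase in the same granule. CHI3L1 lay between MYBPH and CHIT1, the latter encoding an active chitinase. NPG4 (synonym PMAP37) lay next to PR39, in a stretch that also holds PMAP-23 and NPG1, all of them cathelicidin genes.

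Values are log2 intensities of single probe sets, and levels of different probe sets are not set against each other. Whether a lower value reflects fewer cells of a type or less RNA per cell cannot be told apart in such bulk samples. Of the 8 member probe sets, 6 passed the filter on low values: those of CHI3L1 and ELANE and 4 of NPG4. Over the 24 animals CHI3L1 spanned 12.3-fold (log2 5.49 to 9.11) and ELANE 1.67-fold (3.90 to 4.64). The 4 NPG4 sets that passed spanned 31.4- to 114-fold. The SD over animals of each of those 4 sets was higher than that of at least 99.8% of all probe sets, that of CHI3L1 ranked at the 98.9th percentile, and that of ELANE at the 47.1st.

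**Figure D1:**
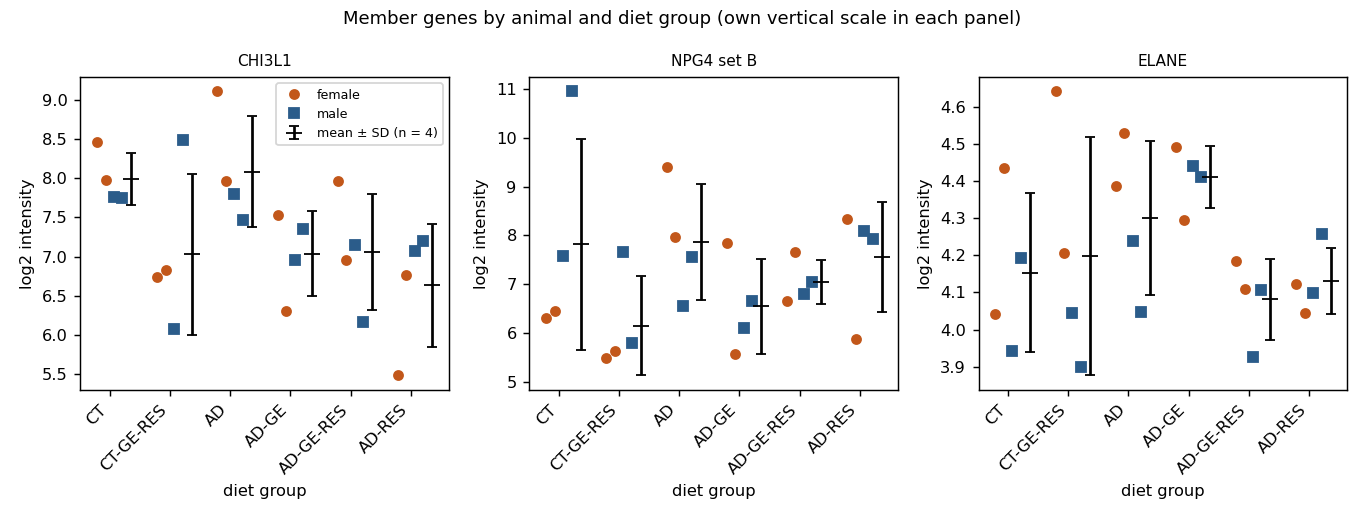
Log2 intensity of CHI3L1, NPG4 (set B) and ELANE in each animal of the 6 diet groups, females as circles and males as squares, with the group mean and SD (n = 4) beside them. Each panel has its own vertical scale: CHI3L1 runs from 5.49 to 9.11, NPG4 from 5.49 to 10.96 with CT 4 at the top, and ELANE only from 3.90 to 4.64.

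Some facts of the whole series bear on these genes. Array medians were alike (38.6 to 41.2 on the linear scale). A 3'/5' ratio was taken as the mean log2 over 3 control transcripts, a measure of how far labelled RNA extends from its 3' end; it ran from 1.37 to 4.39, and CT 4 had the highest value. On average CT 4 also correlated least with the remaining arrays (0.957). Of the 17999 probe sets tested, 13.1% had their highest and 15.3% their lowest value of all animals in CT 4, so it stands apart well beyond the genes described here, and the group differences and relations that it moves most are also given without it. The p-values measure spread between animals; every test across probe sets is from limma, with adjustment by Benjamini and Hochberg over all 17999.

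ELANE, the azurophil granule protease, was close to flat. It measured 4.04, 4.43, 3.94 and 4.19 in the CT animals and 4.39, 4.53, 4.24 and 4.05 on the atherogenic diet. AD-GE animals had 4.49, 4.30, 4.44 and 4.41, AD-GE-RES animals 4.18, 4.11, 3.93 and 4.11, and AD-RES animals 4.12, 4.05, 4.10 and 4.26. In CT-GE-RES they were 4.64, 4.20, 4.04 and 3.90, which holds both the highest and the lowest value of all 24 animals. The highest group mean was that of AD-GE, 4.41 ± 0.08 (SD, n = 4), and the lowest that of AD-GE-RES, 4.08 ± 0.11. From highest to lowest the order was AD-GE, AD, CT-GE-RES, CT, AD-RES and AD-GE-RES, with overlapping values between all neighbours. The mean over all arrays, 4.21, was not far above the level of 3.57 under which probe sets were left out, and the files give no detection call, so whether this probe set stood above background cannot be read from these values.

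No comparison of diets called ELANE. The limma difference was 0.15 for AD against CT (SE 0.13, adjusted p = 0.803) and 0.11 for AD-GE against AD (adjusted p = 0.95). It was −0.22 for AD-GE-RES against AD (95% interval −0.48 to 0.05, adjusted p = 1), −0.17 for AD-RES against AD (adjusted p = 0.98) and 0.04 for CT-GE-RES against CT (adjusted p = 0.938). The moderated F test over the 6 groups gave an adjusted p of 0.635. Females were higher than males by 0.16 (95% interval 0.0043 to 0.31), with an unadjusted p of 0.0444 and an adjusted p of 0.474 from limma; 10.3% of all probe sets had an unadjusted p under 0.05 in that contrast, and 0.267% an adjusted one. In CT 4, ELANE was at 4.19, within the range of the other CT animals and 0.05 above their mean.

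CHI3L1, the specific granule lectin, was highest in the 2 groups without a supplement. The CT animals had 8.46, 7.98, 7.76 and 7.74, a mean of 7.99 ± 0.34 (SD, n = 4). On the atherogenic diet alone the values were 9.11, 7.96, 7.80 and 7.47, with a mean of 8.09 ± 0.71, so the unsupplemented groups covered much the same range. Their difference was 0.10 (SE 0.48, 95% interval −0.90 to 1.10, limma adjusted p = 0.977), and without AD 1, the highest of all 24 animals, it was −0.25.

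In each of the 4 supplemented groups the mean of CHI3L1 was lower than in its unsupplemented counterpart, but no difference passed the threshold. AD-RES animals had 5.49, 6.77, 7.08 and 7.20 (mean 6.64 ± 0.79). All 4 lay below the lowest AD animal, which no other member probe set showed in any of the 5 comparisons of the study; of all probe sets tested, 1.57% were lower without overlap in this comparison, and 2.81% did not overlap in either direction. The difference was −1.45, a 2.73-fold lower level (SE 0.48, 95% interval −2.45 to −0.45), with an unadjusted p of 0.00662 and an adjusted p of 0.98 in limma. It was −2.41 between the 2 females of each group and −0.50 between the 2 males. Leaving out 1 animal at a time gave −1.66 to −1.03, with AD-RES 1, the lowest animal of the study, behind the smaller value.

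AD-GE animals had CHI3L1 values of 7.53, 6.30, 6.96 and 7.35 (mean 7.04 ± 0.54), of which 1 exceeded the lowest AD animal. The difference from AD was −1.05 (SE 0.48, 95% interval −2.05 to −0.05), with an unadjusted p of 0.0406 and an adjusted p of 0.806 in limma. AD-GE-RES animals had 7.96, 6.96, 7.15 and 6.17 (mean 7.06 ± 0.74), and the difference from AD was −1.03 (95% interval −2.03 to −0.03, unadjusted p 0.045, adjusted p 1). These 3 comparisons share the AD animals. Without AD 1 the difference was −0.70 for AD-GE and −0.68 for AD-GE-RES.

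On standard chow the resveratrol-enriched extract went with CHI3L1 values of 6.73, 6.83, 6.08 and 8.49, a mean of 7.03 ± 1.03. Of these, 3 animals lay below every CT animal, and CT-GE-RES 4 lay above every CT animal. The difference from CT was −0.95 (SE 0.48, 95% interval −1.95 to 0.05), with an unadjusted p of 0.0604 and an adjusted p of 0.7 in limma, and it ranged from −1.48 without CT-GE-RES 4 to −0.63 without CT-GE-RES 3. The difference of the enriched extract between the diets was −0.07 (SE 0.68, 95% interval −1.49 to 1.34, adjusted p = 1). From highest to lowest the group means ran AD, CT, AD-GE-RES, AD-GE, CT-GE-RES and AD-RES, with overlapping values between all neighbours. The moderated F test over the 6 groups gave an unadjusted p of 0.0344 and an adjusted p of 0.495; 9.16% of all probe sets reached an unadjusted p under 0.05 in that test and none (0%) an adjusted p under 0.05.

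**Figure D2:**
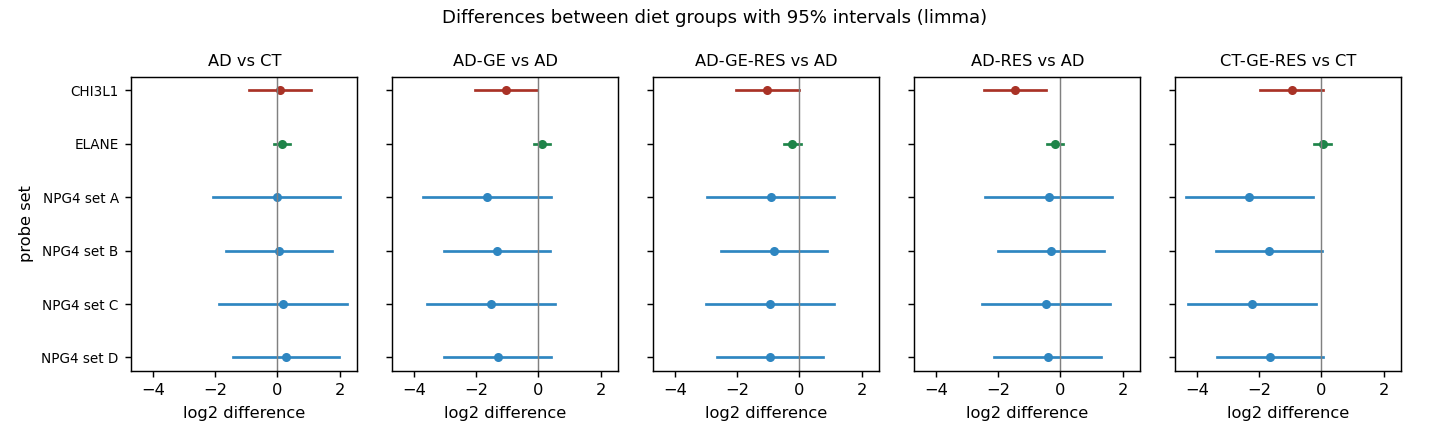
Log2 differences between diet groups for the 6 member probe sets that passed the filter, with 95% intervals from limma, in the 5 comparisons of the study. CHI3L1 lies to the left of 0 in every comparison of a supplemented with an unsupplemented group (−1.45 to −0.95), ELANE stays within 0.22 of 0, and the intervals of NPG4 are several units wide.

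No probe set on the array was called in any of the 5 comparisons (0% of 17999 at an adjusted p under 0.05). At an unadjusted p under 0.05 the limma counts were 1149 probe sets (6.38%) for AD against CT, 1097 (6.09%) for AD-GE, 432 (2.4%) for AD-GE-RES and 801 (4.45%) for AD-RES, each against AD, and 1224 (6.8%) for CT-GE-RES against CT. Probe sets lower at that threshold made up 3.3% for AD-GE, 1.25% for AD-GE-RES, 2.65% for AD-RES and 2.93% for CT-GE-RES. CHI3L1 was among those counted in the 3 comparisons with AD as reference, and 2 of the NPG4 sets in the comparison on chow. Groups did not overlap for 2.74% of probe sets in AD against CT, 4.72% in AD-GE, 1.26% in AD-GE-RES and 4.03% in CT-GE-RES, and for no member in these 4 comparisons.

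NPG4, the protegrin precursor, varied most of the 3 genes. In set B, the probe set with the highest mean, the CT animals had 6.31, 6.44, 7.58 and 10.96, and the last of these, CT 4, was the highest of all 24. AD animals had 9.40, 7.96, 6.55 and 7.55, the first of them second among all animals. The AD-GE values were 7.84, 5.57, 6.11 and 6.66, and those in AD-GE-RES 6.66, 7.67, 6.80 and 7.05. In AD-RES 3 animals were close together at 8.34, 8.09 and 7.92 and AD-RES 2 lay at 5.88. CT-GE-RES held 2 of the 3 lowest animals of the study, with 5.49, 5.64, 7.66 and 5.80. Every pair of groups overlapped in this set, and SDs within groups ran from 0.45 in AD-GE-RES to 2.17 in CT.

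The other NPG4 probe sets told the same animals apart. Set A ran from 4.63 to 11.37, set C from 3.73 to 10.57 and set D from 5.34 to 10.32. Over the 24 arrays these 3 and set B correlated pairwise at r 0.984 to 0.988, a description of probe sets that share a target. The identifiers of sets B and C carry the suffix x, which marks sets with probes that match other sequences too, and those of A and D the suffix a, for several transcripts of 1 gene. Protegrin genes are near-identical copies of each other, so how much of the signal came from NPG4 and how much from its paralogues is uncertain.

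Both NPG4 sets below the filter, E and F, were dim in most animals. Set E lay between 2.32 and 4.08 in 23 of the 24 animals and at 6.82 in CT 4. Set F ran from 2.56 to 3.95, again with its highest value in CT 4. In the 4 sets that passed the filter CT 4 exceeded the mean of the other CT animals 22.1-fold, 18.1-fold, 21.5-fold and 12.4-fold in sets A, B, C and D.

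**Figure D3:**
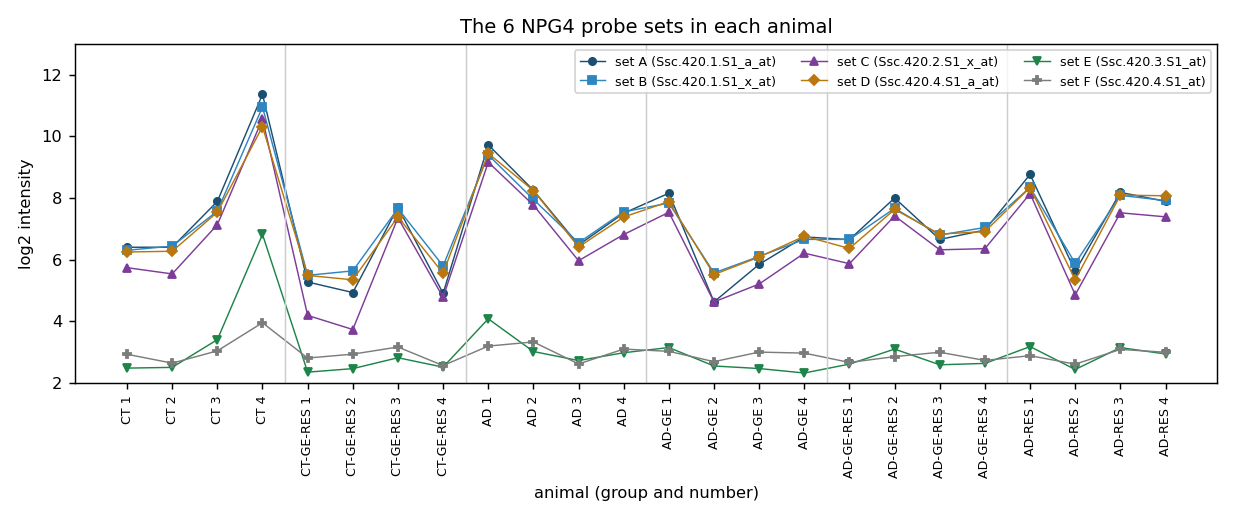
Log2 intensity of the 6 NPG4 probe sets (lines) in each of the 24 animals, ordered by diet group and number, with vertical lines between groups. The 4 upper sets rise and fall together, CT 4 is the highest animal in all 6 sets, and of the 2 dim sets E exceeds 4.08 in CT 4 alone (6.82).

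The NPG4 group means of AD and CT lay close together, with wide errors: over the 4 tested sets the difference lay between −0.02 and 0.28 (SE 0.82 to 0.99, limma adjusted p 0.952 to 0.999), and without CT 4 it was 1.07 to 1.25. Behind these means the sexes went opposite ways. AD females were above CT females by 2.30 to 2.83, with both AD females above both CT females in each of the 4 sets, while AD males were below CT males by 2.03 to 2.63. The difference between the sexes was 4.52 to 5.29 (SE 1.38 to 1.75) with unadjusted p 0.00417 to 0.00872 and adjusted p 0.164 to 0.198 in limma, and so was not called; 0.117% of all probe sets were called in that contrast and 14.9% had an unadjusted p under 0.05. Without CT 4 it was 2.83 to 3.57, and without CT 3 it was 6.0 to 7.0 and past the threshold in all 4 sets. With all animals each of these means rests on 2 animals. Without CT 4 or CT 3 the CT males are 1 animal, in the latter case CT 4 alone, whose spread the test takes from the other groups, so passing the threshold there is no support for a difference between the sexes.

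On the atherogenic diet the NPG4 means of the supplemented groups were below that of AD in all 4 sets. The limma differences were −1.65 to −1.31 for AD-GE (unadjusted p 0.109 to 0.137, adjusted p 0.841 to 0.859), −0.94 to −0.82 for AD-GE-RES and −0.45 to −0.31 for AD-RES. Without AD 1, the highest animal of that group, the difference was −0.96 to −0.68 for AD-GE and −0.31 to −0.20 for AD-GE-RES, and for AD-RES the sign turned, with 0.22 to 0.32.

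With all animals, the NPG4 difference of CT-GE-RES from CT was larger in each of the 4 sets than in the other comparisons. It was −2.31 (SE 0.98, 95% interval −4.36 to −0.26, unadjusted p 0.029) in set A, −1.67 in set B, −2.23 in set C and −1.65 in set D, each with an adjusted p of 0.7 in limma. Without CT 4 the values were −1.21 to −0.65, smaller in size than the −1.65 to −1.31 of AD-GE against AD, so that order rests on CT 4. The difference of the extract between the diets was 0.71 to 1.39 (SE 1.16 to 1.40, adjusted p = 1). The order of group means in set B was AD, CT, AD-RES, AD-GE-RES, AD-GE and CT-GE-RES.

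The 3 genes did not rise and fall together between animals. Over 24 animals CHI3L1 and NPG4 had Pearson r 0.17 and Spearman rho 0.13 (permutation p 0.438 and 0.541, adjusted over 6 relations 0.898 and 0.991). CHI3L1 and ELANE had r 0.07 and rho 0.02 (permutation p 0.734 and 0.914, adjusted 0.898 and 0.991), and ELANE and NPG4 had r −0.03 and rho −0.01 (permutation p 0.898 and 0.953, adjusted 0.898 and 0.991). Without the 2 animals farthest from the median of the first gene the 3 r values were 0.13, −0.06 and 0.07, and for deviations from the group means they were −0.04, 0.01 and 0.05. Single animals show the split: AD-RES 1 had the lowest CHI3L1 of all and the third highest NPG4, while CT 1 had the third highest CHI3L1 and an NPG4 of 6.31.

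The remaining relations of that family set each gene against the 3'/5' ratio. NPG4 had r 0.48 (permutation p 0.0177, adjusted 0.106) and rho 0.34 (p 0.105, adjusted 0.632), falling to r 0.24 without CT 4 and AD-GE-RES 2 and to 0.28 without CT 4 alone. For deviations from the group means r was 0.57 (adjusted permutation p 0.0651). CHI3L1 had r 0.05 and ELANE r −0.04 with the ratio. Group means of the ratio were 3.15 ± 1.13 (SD, n = 4) in CT and 2.20 ± 0.89 in CT-GE-RES, and 2.19 ± 0.87 in AD. They were 2.46 ± 0.82 in AD-GE, 2.69 ± 1.24 in AD-GE-RES and 1.92 ± 0.23 in AD-RES.

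CHI3L1 instead varied with the monocyte genes, with other specific granule genes and with genes of gelatinase granules and mature neutrophils. Relations of the 3 genes with the mean level of 12 marker lists were computed after the data had been seen, 36 in all, and each list mean is of genes centred over animals with the member itself left out. CHI3L1 against the mean of 12 monocyte genes had r 0.74 and rho 0.72 (permutation p adjusted over the 36 relations 3.6e-04 and 0.0018), with r 0.67 without the 2 farthest animals and 0.73 within groups. Against 5 other specific granule genes it had r 0.60 and rho 0.73 (adjusted p 0.0123 and 0.0018), and against 8 genes of gelatinase granules and mature neutrophils r 0.60 and rho 0.68 (adjusted p 0.0123 and 0.0036). Within groups these r values were 0.50 and 0.52. Without CT 4 they were 0.73 and 0.60, and r for the monocyte list was 0.75. Against 4 eosinophil and basophil genes rho passed (0.55, adjusted p 0.0463) and r did not (0.43, adjusted p 0.102). The genes of these lists differed in how far they followed CHI3L1. Of the gelatinase granule and mature neutrophil genes, r was 0.74 for S100A9 and 0.65 for S100A8, which encode a calcium-binding pair abundant in both monocytes and neutrophils, 0.65 for VNN2 and 0.61 for S100A12, and between −0.18 and 0.25 for the other 5 measured. Of the specific granule genes, r was 0.62 for LTF, which encodes lactoferrin, 0.49 for PGLYRP1 and 0.31 for CYBA, and only 0.11 for HP, −0.02 for ORM1, −0.07 for OLFM4 and −0.27 for TCN1. OLFM4, TCN1 and, of the gelatinase list, TNFAIP6 were dim (means 2.39, 2.83 and 2.05), below the filter and not in the list means. Of the granulocyte precursor genes, r was 0.72 for SPI1, which encodes the myeloid transcription factor PU.1, and 0.48 for CD34. It was 0.29 for KIT, 0.03 for CEBPA and −0.11 for TOP2A. Of the azurophil granule genes, r was 0.73 for SERPINB1 and between −0.13 and 0.27 for the others measured.

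Among all genes with 1 symbol, the 5 whose levels were most like CHI3L1 over 24 animals were ACVR1B (Pearson r 0.80), encoding an activin receptor, SLC11A1 (0.79), a metal transporter of phagosomes, CEBPD (0.78), a transcription factor of myeloid cells, HMOX1 (0.77), heme oxygenase, and CFP (0.77), properdin of the complement system. Without CT 4 their r lay between 0.77 and 0.80.

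Most monocyte markers were also lower in the supplemented groups. Genes of gelatinase granules and mature neutrophils, described below, had median differences larger in size in each comparison. Those were −0.63 in AD-GE, −0.38 in AD-GE-RES and −0.71 in AD-RES, each against AD, and −0.50 in CT-GE-RES against CT. In AD-GE 12 of 12 monocyte genes were lower than in AD (median −0.57), in AD-GE-RES 11 of 12 (median −0.30) and in AD-RES 11 of 12 (median −0.43); in CT-GE-RES 8 of 12 were lower than in CT (median −0.19). None was called, and 3, 1, 3 and 2 of them had an unadjusted limma p under 0.05 with a lower level, beside medians over all probe sets between −0.0024 and 0.0094. Of all probe sets tested, 3.3%, 1.25%, 2.65% and 2.93% were lower at that threshold in the same order, and 49.4% to 52.4% were higher at any p. The median was −0.12 in AD-GE-RES without AD-GE-RES 3, −0.18 in AD-RES without AD-RES 1 and −0.057 in CT-GE-RES without CT-GE-RES 3, where 6 of 12 were lower. The mean level of the list ran from 0.14 to 0.54 in AD, from −0.58 to 0.01 in AD-GE, from −0.23 to 0.37 in AD-GE-RES and from −0.78 to 0.37 in AD-RES. It ran from −0.13 to 0.74 in CT and from −0.45 to 0.72 in CT-GE-RES. AD-RES 1, lowest for CHI3L1, was also lowest for the monocyte list, and CT-GE-RES 4, second highest for CHI3L1, was second highest for the list. Other animals differed in place: AD 1, highest for CHI3L1, was at 0.14 on the list, the lowest AD animal. AD-RES 4, at 7.20 for CHI3L1, was at 0.37 on the list, the highest AD-RES animal. The part of these markers in the CHI3L1 differences was not tested.

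**Figure D4:**
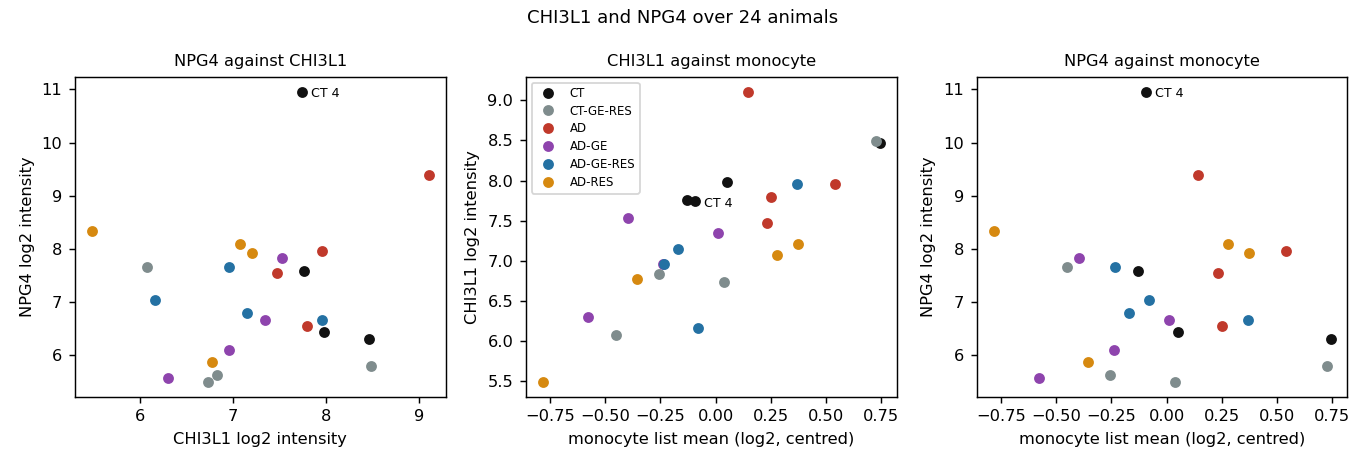
NPG4 against CHI3L1 (left), CHI3L1 against the mean level of 12 monocyte genes (middle) and NPG4 against the same mean (right), in log2 units, 1 point for each of 24 animals, coloured by diet group, with CT 4 named. Points rise together in the middle panel (Pearson r 0.74) and show no such slope on the left (0.17) or the right (−0.05).

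NPG4 went with PR39, its neighbour in the cathelicidin cluster, which encodes a proline- and arginine-rich antimicrobial peptide. Over 24 animals r was 0.90 and rho 0.77 (both adjusted permutation p 3.6e-04 over the 36 relations), and r was 0.83 without CT 4 and 0.90 within groups. PR39 belongs to the same gene family, so shared probe sequence cannot be told apart from shared level. The other 4 genes most like NPG4 were PHOSPHO1 (Pearson r 0.79), a phosphatase, GPIHBP1 (0.79), the anchor of lipoprotein lipase, SOD3 (0.78), extracellular superoxide dismutase, and ITIH3 (0.77), a heavy chain of inter-alpha-trypsin inhibitors. Each of the 5 had its highest value in CT 4, and without that animal these 4 fell to 0.57 to 0.67.

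Against the monocyte list NPG4 had r −0.05 and rho 0.04 (adjusted permutation p 0.93 and 0.963). A further 4 lists reached an adjusted permutation p under 0.05 for r but not for rho. These were 6 specific granule genes (r 0.62, rho 0.35, adjusted p 0.0123 and 0.273), 4 eosinophil and basophil genes (r 0.61, rho 0.47, adjusted p 0.0123 and 0.105), 7 erythroid genes (r 0.66, rho 0.46, adjusted p 0.0107 and 0.108) and 12 T cell genes (r −0.61, rho −0.44, adjusted p 0.0123 and 0.121). Without CT 4 the r values were 0.39, 0.35, 0.46 and −0.35, so these relations rest in large part on that animal.

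In CT-GE-RES against CT 12 of 12 T cell genes were higher (median 0.53, with 8 at an unadjusted limma p under 0.05) and 6 of 7 erythroid genes lower (median −0.60), and none was called. Of all probe sets tested, 52.3% were higher in this comparison, with a median of 0.0094. An unadjusted limma p under 0.05 was reached by 6.8% of them in either direction, and by 2.93% with a lower level. The mean level of the T cell list ran from −1.13 to 0.05 in CT and from 0.09 to 0.43 in CT-GE-RES, and that of the erythroid list from −0.52 to 1.69 and from −0.91 to 0.10. CT 4 was at −1.13 for T cell and at 1.69 for erythroid genes. Without it 11 of 12 T cell genes were higher (median 0.40) and 5 of 7 erythroid genes lower (median −0.13). The part of these markers in the NPG4 difference was not tested.

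ELANE had no such company among the lists. None of its 12 relations with the lists had an adjusted permutation p under 0.05, and the 6 other azurophil granule genes gave r 0.28 and rho 0.26. It correlated at r 0.38 with PRTN3, its neighbour, which encodes proteinase 3. Of the other granulocyte genes measured, OLFM4 of the specific granule list had the highest r with ELANE, 0.59. The OLFM4 probe set was dim (mean 2.39) and below the filter. The 5 genes most like it were ARR3 (0.73), TXN2 (0.66), COL5A2 (0.64), MYL2 (0.63) and BAALC (0.62). None of these 5 genes is on the marker lists used here.

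The wider set of granulocyte genes was given by 6 lists of marker genes, of which 35 were measured by a probe set with 1 symbol. MPO, AZU1, CTSG, LCN2, CAMP, MMP8, CXCR2 and CSF3R were not analysed here. No gene of these lists was called in any of the 5 comparisons. Of 8 tested genes of gelatinase granules and mature neutrophils, 6 were lower in AD-GE than in AD (median −0.63), 7 in AD-GE-RES (−0.38) and 6 in AD-RES (−0.71), and 8 of 8 were lower in CT-GE-RES than in CT (−0.50). Of 6 tested specific granule genes 5, 5, 4 and 5 were lower in the same order (medians −0.40, −0.10, −0.29 and −0.67), with CHI3L1 the one with an unadjusted p under 0.05 in each comparison with AD. The 7 azurophil granule genes had medians of −0.09, −0.06, −0.15 and 0.03. Single animals moved these medians. Without CT 4 the specific granule median in CT-GE-RES was −0.22 and without CT 3 −0.98, and the azurophil median was −0.096 without CT 4. The azurophil median in AD-GE-RES was 0.044 without AD-GE-RES 2. In AD-GE-RES the specific granule median ran from −0.27 without AD-GE-RES 1 to −0.043 without AD-GE-RES 2, and that of the gelatinase list from −0.93 without AD-GE-RES 1 to −0.14 without AD-GE-RES 3. In AD-RES the specific granule median was −0.14 and the gelatinase median −0.39 without AD-RES 2, and in CT-GE-RES the gelatinase median was −0.21 without CT-GE-RES 3. No gene of these lists was called with any 1 animal left out. For comparison, the median over all 17999 probe sets lay between −0.0024 and 0.0094, and 49.4% to 52.4% of them were higher.

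In AD against CT the direction of the same lists depended on single animals, CT 4 among them. With all animals, 5 of 7 azurophil granule genes were higher (median 0.09), 3 of 6 specific granule genes (−0.04) and 3 of 8 genes of gelatinase granules and mature neutrophils (−0.14). LTF differed by −0.13 (SE 0.96), S100A9 by −0.03 (SE 0.70) and PR39 by −0.34 (SE 0.67), each with a limma adjusted p of at least 0.923. Without CT 4 all 3 signs turned, with 0.98 for LTF, 0.58 for S100A9 and 0.63 for PR39 (limma adjusted p 0.925, 0.94 and 0.925). The counts of higher genes were then 4 of 7 azurophil (median 0.061), 5 of 6 specific granule (0.11) and 8 of 8 gelatinase and mature neutrophil genes (0.13). The specific granule median was −0.42 without AD 1 and 0.16 without AD 3, and the gelatinase median −0.37 without CT 3. Without AD 3 the differences of LTF (0.46) and S100A9 (0.33) also turned in sign, and that of PR39 (−0.027) did not. The LTF difference was −1.51 for AD-GE against AD (SE 0.96, limma adjusted p = 0.858), and −0.93 without AD 1. For CT-GE-RES against CT it was −1.56 (limma adjusted p = 0.7), and −0.45 without CT 4.

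CT 4 set the granulocyte genes apart from each other. It had the highest level of all 24 animals for 18 of the 35 measured genes and the lowest for 3. Over all probe sets tested these shares were 13.1% and 15.3%, a set that leaves out dim ones, whereas the 35 genes include some below the filter. Among the 18 are OLFM4 and TCN1, both below the filter, and NPG4 with its relative PR39. High levels in CT 4 were not particular to granulocyte genes, since its erythroid list mean was 1.69. LTF was at 11.10 in CT 4 against a mean of 6.78 in the other CT animals, a difference of 4.31, PR39 at 8.70 against 5.09 (3.62), and HP, which encodes haptoglobin, at 8.36 against 5.23 (3.13). S100A9 was higher by 2.49, S100A8 by 2.03, PGLYRP1, a peptidoglycan recognition protein of specific granules, by 1.97 and ARG1 by 1.94. Higher by 1.24 was TOP2A, a topoisomerase of dividing cells, and by 1.62 ALOX15, a lipoxygenase of eosinophils.

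Differences were smaller or of opposite sign for other granule genes in CT 4. PRTN3 and BPI were highest of all 24 animals there, but by 0.53 and 0.52 above the mean of the other CT animals. MMP9, a gelatinase, was 0.096 above that mean, and CHI3L1 was 0.33 below it. CYBA, a subunit of the oxidase of phagocytes, was lower by 1.75, CD63, a granule membrane protein, by 0.74 and CXCL8, a neutrophil-attracting chemokine, by 2.17, each the lowest of the 24 animals. CD14, a defining monocyte marker, was also lowest there, at 4.31 against 6.22. SIGLEC1, on the same monocyte list, was the highest of the 24 animals there, at 4.59 against 3.97. The monocyte list as a whole was at −0.09. Since the labels give CT 4 no mark of its own, these values are a description of 1 animal, with no test.

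**Figure D5:**
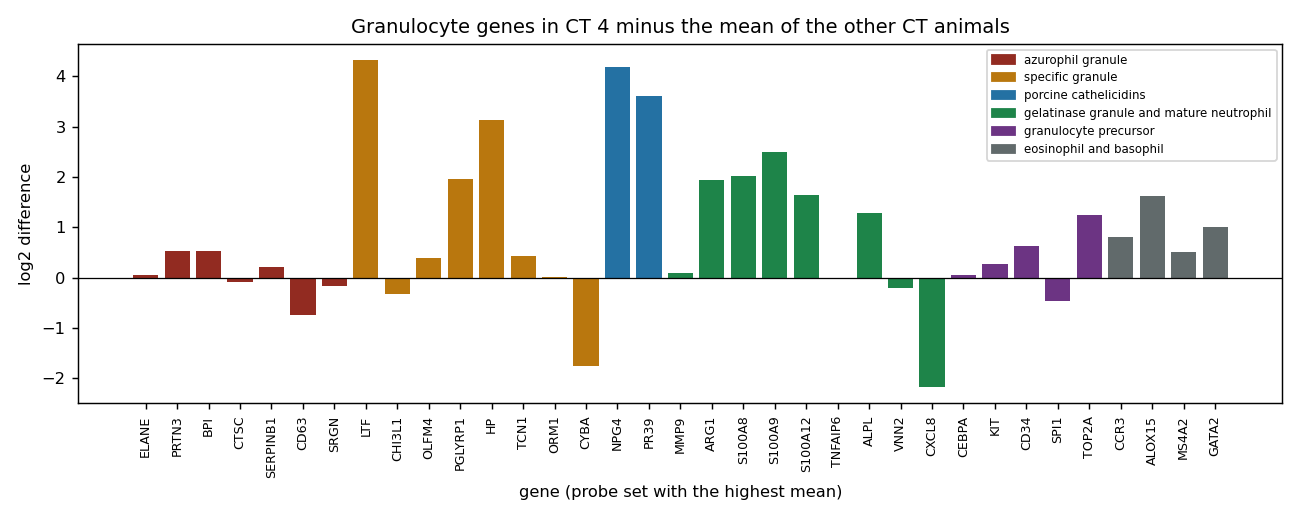
Log2 level in CT 4 minus the mean of the other 3 CT animals for 35 granulocyte genes, 1 bar for each gene (probe set with the highest mean), coloured by list. LTF (4.31), NPG4 (4.18), PR39 (3.62) and HP (3.13) stand highest, ELANE (0.05) and CHI3L1 (−0.33) lie near 0, and CXCL8 (−2.17) and CYBA (−1.75) lie below.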

How the data were processed

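RNA of PBMNCs from 24 pigs was hybridised to 24 Affymetrix porcine arrays. The deposited values were 1 linear intensity for each probe set and array; RMA and GCOS are named in the submitters' processing notes, with versions and roles not stated in the labels; the authors' values were taken to log2 with no pseudocount. Of 24123 probe sets 124 controls were removed, and of 23999 the lowest 25% by mean (under 3.57) were left out, which left 17999. Symbols came from the platform's annotation. A model of group and sex over all arrays was fitted with limma 3.58.1 in R 4.3.3 (17 residual and 3.60 prior degrees of freedom), two-sided, with Benjamini-Hochberg adjustment and a threshold of 0.05; it was tested on simulated data. The sex by diet contrast used 12 diet and sex groups. Relations over arrays used 100000 permutations.

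The members and marker lists were chosen with earlier results of these data known. Named were all member probe sets, genes of the granulocyte lists, and for each member (probe set with the highest mean) the 5 genes with 1 symbol with the highest Pearson r. CD14 and SIGLEC1 were named after their values were seen. Alternatives covered the sex term, arrays in the fit, filter, normalization, array weights, 3'/5' ratio as a covariate, each sex, each array left out, and, added after seeing the data, CT 4 and AD-GE-RES 1 left out and each array left out for the marker lists. The number of arrays limits the precision.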

Additional observations from a re-analysis of the deposited data

Results flagged for a closer look

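In a group of 4, an animal stands far from the others when its gap to the nearest divided by the range exceeds 0.829; this held in 5 of the 48 groups of 4 animals examined (8 probe sets in 6 diet groups), where chance gives about 1 in 20. CT-GE-RES 3 was the high animal in set A at 7.70 (others 4.91 to 5.28), in set B at 7.66 (others 5.49 to 5.80) and in set D at 7.39 (others 5.35 to 5.56). AD-RES 2 was the low animal in set D at 5.34 (others 8.07 to 8.34). AD-GE-RES 2 was high in the dim set E at 3.10 (others 2.59 to 2.63). All 5 are NPG4 sets, which share their target, and CT 4 did not meet this rule in any of them because CT 3 lay between it and the females.

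The NPG4 difference of AD from CT was of opposite sign in females and males, with every female value of AD above and every male value below those of the same sex in CT. Females minus males it was 5.22 in set A, 4.52 in set B, 5.29 in set C and 4.62 in set D, and the limma test of this difference gave adjusted p 0.164 to 0.198. In that contrast 14.9% of all probe sets had an unadjusted limma p under 0.05. The CT males are CT 3 and CT 4, and without CT 4 the difference was 2.83 to 3.57. In set B AD 4 lay at 7.55 and CT 3 at 7.58.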

How the results depend on the processing

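No paired analysis was possible because the labels give each animal its own number and none is shared between groups. With 4 arrays for each group and spreads as large as those of NPG4, only differences of several log2 units could pass the threshold for it, and array signal over background is unknown for want of detection calls. No member probe set was called in any of the 5 comparisons of the study under any alternative run. Of the member values under alternatives other than leaving out 1 array, 430 kept their direction and their side of the threshold and 30 changed sign; with 1 array left out these were 581 and 39, and 4 passed the threshold (NPG4 in the sex by AD against CT contrast without CT 3, where CT 4 is the only CT male and is assumed to vary like the other groups). The cause was not tested for any of these. The sex by diet contrast was not run with array weights or with the ratio as a covariate.

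For AD against CT, CHI3L1 was −0.018 with the 3'/5' ratio as a covariate and −0.12 in males. NPG4 set A was 0.75 with array weights, 0.93 with the ratio, 2.59 in females and 1.09 without CT 4 and AD-GE-RES 1. Males gave −2.21 in set B, −2.46 in set C and −2.03 in set D. For AD-RES against AD males gave 1.04, 0.95, 1.06 and 1.19 in NPG4 sets A, B, C and D, and ELANE 0.034. ELANE was −0.064 in females for AD-GE against AD and −0.10 in males for CT-GE-RES against CT. Between the sexes CHI3L1 was −0.20 with array weights and −0.063 without CT 4 and AD-GE-RES 1. The difference of the extract between the diets was 0.10 with the ratio and 0.37 in females for CHI3L1. In the same order of NPG4 sets it was −0.051, −0.42, −0.12 and −0.43 with the ratio and −0.37, −0.71, −0.15 and −1.01 in females. Without the 2 arrays it was −0.067 in set B and −0.0073 in set D.

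With 1 array left out, AD against CT ranged from −0.25 to 0.30 for CHI3L1 and, in the order of the NPG4 sets above, from −0.71 to 1.08, −0.58 to 1.07, −0.53 to 1.25 and −0.36 to 1.16. AD-RES against AD ranged from −0.99 to 0.32, −0.85 to 0.32, −1.07 to 0.26 and −1.0 to 0.26 in those sets. For ELANE, CT-GE-RES against CT ranged from −0.084 to 0.12 and the sex by diet contrast from −0.051 to 0.34. For CHI3L1 the sexes differed by −0.045 to 0.25, the sex by diet contrast by −0.14 to 1.00 and the extract between diets by −0.40 to 0.46. The last ranged from −0.18 to 1.47 in set B and from −0.17 to 1.34 in set D.

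Counts of probe sets called over the whole array were 0 in the 5 comparisons, except 1 in females and 242 in males for AD against CT, 1 with array weights for AD-GE, 4 in females and 7 in males for AD-RES, and 122 in males for CT-GE-RES. The F test called 92 with array weights in place of 0. Between the sexes the 48 calls became 806 with array weights, 216 without the 2 arrays and 32 to 242 with 1 array left out. The 21 calls of the sex by AD against CT contrast became 5 after repeated quantile normalization, 147 without the 2 arrays and 0 (without CT 2) to 961 (without CT 3) with 1 array left out.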
